A study of Mus musculus with 65 samples.

Results

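The comparison described here set retinas of mice 14 days into microglial repopulation (REPOP14, 4 mice) against retinas at day 10 (REPOP10, 4 mice), so 8 of the 65 mice of the series were compared. All 8 mice were adult C57BL/6J animals that had eaten the PLX5622 diet for 14 days and were then returned to the control diet for 10 or 14 days. PLX5622 inhibits CSF1R, the receptor on which microglia depend for survival, and its withdrawal lets microglia return to the emptied retina. In each group 3 sample titles end in RE and 1 ends in re, and the suffix was a term of the model. Mice on the control diet alone (CD, 5 mice) and mice after 14 days of PLX5622 (DEP14, 4 mice) served as reference levels, with no test. Bulk RNA of whole retina was sequenced, so fewer microglia and less RNA per microglial cell cannot be told apart. The labels give no pooling of animals, and the number of retinas per library was not given in the sources used here.

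Microglia are the resident macrophages of the retina. They survey the synaptic layers with branched processes, clear debris through their lysosomes, and are the main source of complement C1q in nervous tissue. At rest they are known for the fractalkine receptor Cx3cr1, the ADP receptor P2ry12, the surface protein Tmem119 and the transcription factor Sall1, and they depend on CSF1R and on the ETS factor PU.1 (encoded by Spi1).

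Libraries held between 7539519 and 8576859 counts, and 3 counts came to 0.35 to 0.398 CPM of these totals. CPM elsewhere are counts relative to TMM-scaled library size. This floor covers counting error only, and many microglial genes lay near it. REPOP10 mice 2 and 3 stood apart from the other 6 mice in genes of pigmented and ciliary tissue. Values without both mice are given for part of the genes and lists named. REPOP10 mouse 4 had the highest count of its group in C1qa, C1qc, Ctss, Mpeg1 and Cx3cr1. Genes named by the rule given with the processing are C1qc, C1qa, Ctss, Lyz2, Selplg, Gpnmb, Plcg2, Cyba, Lgals3, Tspo, the 5 markers of the study and 1 gene for each other list, and all other genes are named with their values in view. The defining markers were present at both days: Cx3cr1, Tmem119 and Sall1 had counts in all 8 mice, but Trem2 was at 0 in 3 REPOP10 and 2 REPOP14 mice.

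Upstream sequences are shown for 2 C1q genes and 2 lysosomal genes whose groups did not overlap, because these genes moved in the same direction and PU.1 is known to act at promoters of microglial genes. They come from the RefSeq table of GRCm38.p6, run 5′ to 3′ on the strand of the gene, and leave out bases that the GENCODE M21 annotation places inside the gene. Capitals mark GAGGAAG, a PU.1-type ETS motif, searched on both strands.
C1qb: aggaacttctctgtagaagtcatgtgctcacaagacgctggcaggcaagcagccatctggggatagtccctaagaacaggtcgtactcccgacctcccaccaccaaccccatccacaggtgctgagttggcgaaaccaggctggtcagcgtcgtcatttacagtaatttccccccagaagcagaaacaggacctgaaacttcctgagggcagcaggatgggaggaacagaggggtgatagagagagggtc
C1qc: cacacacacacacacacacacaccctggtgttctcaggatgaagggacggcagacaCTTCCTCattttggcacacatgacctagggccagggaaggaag
Ctss: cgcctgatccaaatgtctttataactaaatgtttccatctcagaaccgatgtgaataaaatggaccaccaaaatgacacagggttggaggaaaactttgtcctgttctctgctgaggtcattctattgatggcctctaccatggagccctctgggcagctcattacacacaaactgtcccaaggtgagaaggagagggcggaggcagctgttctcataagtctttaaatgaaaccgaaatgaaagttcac
Mpeg1: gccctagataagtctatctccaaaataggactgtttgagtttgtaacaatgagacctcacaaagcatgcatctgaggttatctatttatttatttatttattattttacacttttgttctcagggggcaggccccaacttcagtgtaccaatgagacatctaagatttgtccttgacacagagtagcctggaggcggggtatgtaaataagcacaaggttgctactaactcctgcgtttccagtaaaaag

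These windows are C1qb at chr4:136886201-136886450 and C1qc at chr4:136893066-136893164, both on the minus strand, and Ctss at chr3:95526536-95526785 and Mpeg1 at chr19:12460520-12460769, both on the plus strand. The motif occurred once, on the reverse strand of C1qc, 194 bases before the RefSeq start. In the 250 bases before the start, it occurred in 26 of 94 microglial genes tested that had a promoter in the table (27.7%), beside 3244 of all 27025 genes (12%). Among the microglial genes that depletion lowered below 50% of CD, described below, it occurred in 2 of 16 (12.5%), and among those at or above 50% of CD in 10 of 33 (30.3%). A match is a description of the sequence, and its absence says only that these letters are not in the window.

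C1qc, the C chain of complement C1q, was the one gene of 24486 tested that passed an FDR of 0.05. Its counts were 3, 0, 1 and 6 in REPOP10 mice 1 to 4 and 42, 16, 23 and 23 in REPOP14 mice 1 to 4. Every REPOP14 mouse therefore lay above every REPOP10 mouse, and the group means were 0.313 ± 0.327 and 3.26 ± 1.5 CPM (mean ± SD, n = 4 each). C1qc rose by 3.30 ± 0.44 on the log2 scale (SE), which is 9.84-fold, with an adjusted p of 0.0235 in edgeR's quasi-likelihood test. No gene met the study's rule for a differentially expressed gene (DEG), an FDR under 0.01 with a log2 fold change beyond 1. The call of C1qc held in some other fits and not in others. Its adjusted p was 0.00087 with DESeq2, 3.9e-12 with the likelihood ratio test and 0.00132 with the older quasi-likelihood method. It was 0.0261 with RLE normalization, 0.0257 with filterByExpr and 0.00167 with no gene filter. With all 16 groups in one fit it was 0.000285, and without REPOP10 mouse 4 it was 0.0163. With the same 8 mice its adjusted p was 0.112 with a replicate block in place of the suffix and 0.998 with no suffix. Leaving out REPOP10 mouse 1, 2 or 3 or any 1 REPOP14 mouse brought its adjusted p to between 0.228 and 0.996. Over the 8 fits that each left out 1 mouse, its log2 fold change was between 2.98 and 4.25. Without REPOP10 mice 2 and 3 it was 2.70 with an adjusted p of 0.817.

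The other chains of C1q moved the same way. C1qa, C1qb and C1qc lie side by side on the minus strand of chromosome 4, between 136880129 and 136898803 (GRCm38). C1qa had 3, 4, 4 and 10 counts at day 10 and 13, 13, 27 and 30 at day 14, a log2 fold change of 1.94 ± 0.38 with an adjusted p of 0.538. C1qb had 4, 6, 8 and 12 counts at day 10 and 27, 18, 18 and 25 at day 14, a log2 fold change of 1.52 ± 0.32 with an adjusted p of 0.719. For both genes the groups did not overlap, although neither passed the test over all genes. At day 14 the means of C1qa, C1qb and C1qc stood at 70.4%, 89.9% and 103% of CD, against 18.1%, 30.6% and 9.87% at day 10. In the authors' FPKM values, which allow genes to be compared per length, the 3 chains were close to each other at day 14, with levels of 2.77 ± 0.717, 2.53 ± 0.492 and 2.82 ± 0.881 (SD, n = 4). Of the other complement genes, Cfp, which encodes properdin, had a log2 fold change of 0.12 ± 0.11 and C3ar1, the C3a receptor, of 0.72 ± 0.87. Vsig4, also of this list, had 2.32. Without REPOP10 mice 2 and 3 these were 0.14 ± 0.15 for Cfp, 4.93 ± 1.53 for C3ar1 and 2.64 ± 2.10 for Vsig4. Across the complement list 3 of 6 genes tested did not overlap (all genes: 0.621%), and all 6 had a higher mean at day 14. The median log2 fold change was 1.73 (all genes: -0.01), or 2.05 without REPOP10 mice 2 and 3.

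**Figure D1:**
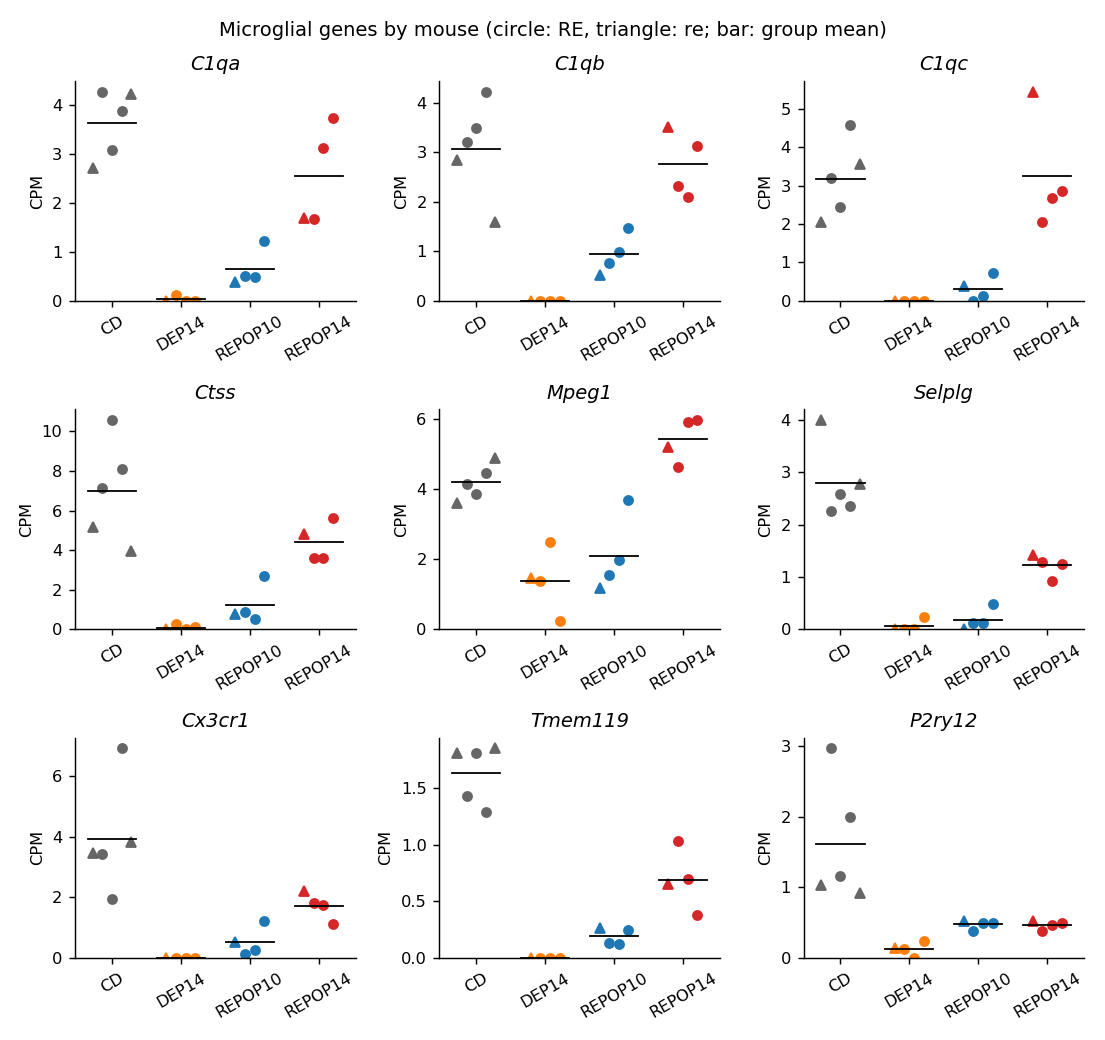
Level of 9 microglial genes in each mouse, in CPM, for CD, DEP14, REPOP10 and REPOP14. Points are mice (circles for titles ending in RE, triangles for re) and bars are group means. C1qa, C1qb, C1qc, Ctss, Mpeg1, Selplg and Tmem119 are higher in all 4 REPOP14 mice than in all 4 REPOP10 mice, while P2ry12 has the same mean level, near 0.47 CPM, at both days.

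Over the 6 microglial gene lists, 122 of 130 genes were tested and 92 had a higher and 30 a lower mean at day 14. Of these 122, 18 were higher in every REPOP14 mouse than in every REPOP10 mouse, beside 0.621% of all genes, and none was lower in every mouse (all genes: 0.453%). At an unadjusted p under 0.05, 29 were higher (all genes: 1.92%) and 1, Gpnmb, was lower (all genes: 1.74%). At an FDR under 0.05 there was 1 higher, C1qc (all genes: 0.00408%). The median log2 fold change was 0.54. Leaving out REPOP10 mice 2 and 3 left 20 higher and 0 lower of 122 at an unadjusted p under 0.05, with a median of 0.43. In that fit 293 of all 25713 genes tested were higher and 257 were lower at that p. The 8 genes not tested did not reach the minimum count. A gene can enter the test through its higher group alone, so the counts over tested genes are a description.

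Lysosomal genes formed the second group at the head of the comparison. Ctss, the cysteine protease cathepsin S, had 6, 7, 4 and 22 counts at day 10 and 37, 28, 31 and 45 at day 14. The groups did not overlap, and the log2 fold change was 1.83 ± 0.36 (adjusted p = 0.538), or 2.60 without REPOP10 mouse 4 and 1.26 without REPOP10 mice 2 and 3. Mpeg1, which encodes the pore-forming perforin-2 of macrophages, had 9, 12, 16 and 30 counts at day 10 and 40, 36, 51 and 48 at day 14. Its log2 fold change was 1.37 ± 0.26 (adjusted p = 0.538), and its day 14 mean was 129% of CD. Lyz2, the lysozyme of myeloid cells, had 6, 1, 7 and 2 counts at day 10 and 15, 11, 14 and 22 at day 14, a log2 fold change of 1.91 ± 0.43 (adjusted p = 0.815). Its day 14 mean was 240% of CD, from 62.7% at day 10, although the REPOP14 and CD mice overlapped. Laptm5, a lysosomal membrane protein of haematopoietic-lineage cells, had 9, 6, 4 and 17 counts and then 33, 26, 18 and 18. Ly86, a partner of the receptor Cd180, had 0, 0, 3 and 1 counts and then 11, 6, 2 and 11. Of the 20 lysosomal genes tested, 8 were higher at an unadjusted p under 0.05 (all genes: 1.92%) and 6 did not overlap (all genes: 0.621%), with a median of 0.90 (0.61 without REPOP10 mice 2 and 3). Lgmn, the protease legumain, which other retinal cells also use, was near CD at both days, at 99.5% and 103%.

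Surface receptors split into genes that were higher and genes that were not. Selplg, the P-selectin ligand, had 0, 1, 1 and 4 counts at day 10 and 11, 10, 8 and 10 at day 14, a log2 fold change of 2.59 ± 0.56 (adjusted p = 0.719), or 3.63 without REPOP10 mouse 4. All 4 REPOP14 mice nevertheless lay below all CD mice, at a mean of 43.8% of CD. Cd33, a sialic acid-binding receptor, had 1, 1, 0 and 0 counts and then 7, 4, 9 and 5. Counted over the group, its REPOP14 level was 12.3 times that of REPOP10 (95% exact counting interval 3.08 to 107). Fcrls, an Fc receptor-like protein of microglia, had 1, 0, 1 and 0 counts and then 3, 3, 4 and 11, which put its mean at 286% of a low CD level of 0.228 CPM. Of the 26 receptors and surface genes tested, 7 were higher at an unadjusted p under 0.05 (all genes: 1.92%) and 5 did not overlap (all genes: 0.621%), with a median log2 fold change of 0.90 (0.58 without REPOP10 mice 2 and 3).

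The 5 microglial genes that the text of the study lists as markers had few counts, and differences among these genes were not tested. Cx3cr1 had 4, 1, 2 and 10 counts at day 10 and 17, 14, 15 and 9 at day 14, so REPOP10 mouse 4 overlapped the later group. Its log2 fold change was 1.65 ± 0.45 (adjusted p = 0.952), with 2.53 when REPOP10 mouse 4 was left out and 0.96 when REPOP10 mice 2 and 3 were. Its mean went from 13.6% to 43.8% of CD. Tmem119 had 2, 1, 1 and 2 counts and then 5, 8, 6 and 3, with no overlap, a log2 fold change of 1.78 ± 0.55 (adjusted p = 0.952) and a mean of 42.0% of CD. All REPOP14 mice were below all CD mice in this gene. Sall1, the transcription factor of microglial identity, had 5, 3, 4 and 8 counts and then 12, 7, 10 and 7 (log2 fold change 0.82 ± 0.39, adjusted p = 0.952), and stood at 60.6% of CD, below all CD mice. Itgam, the CD11b integrin chain, had 0, 1, 0 and 3 counts and then 3, 3, 0 and 1, a log2 fold change of 0.72 ± 1.01, and stood at 33.5% of CD. Without REPOP10 mice 2 and 3 its log2 fold change was 0.17. Trem2, the lipid-sensing receptor, had 0, 0, 0 and 1 counts and then 6, 0, 0 and 4 (log2 fold change 2.80 ± 1.29). It was above 0 in 2 of the 4 REPOP14 mice. The adjusted p was 0.969 for Itgam and 0.952 for Trem2, and the direction of Itgam turned when mouse 1 of either group was left out (log2 fold change -0.02).

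P2ry12 had the same counts at both days. These were 4, 3, 4 and 4 in REPOP10 mice 1 to 4 and 4, 3, 4 and 4 in REPOP14 mice 1 to 4, against 8, 25, 9, 17 and 7 in CD. The means were 0.473 ± 0.0601 and 0.467 ± 0.0586 CPM, the log2 fold change was -0.02 ± 0.46 and the ratio of counts was 0.987 with a 95% counting interval of 0.45 to 2.17. That interval lies below those for C1qc, 5.36 to 22.0, Selplg, 2.70 to 18.5, Ctss, 2.49 to 5.23, and C1qa, 2.39 to 6.63. It overlaps those for Tmem119, 1.42 to 10.9, Cx3cr1, 1.83 to 5.87, C1qb, 1.89 to 4.54, Mpeg1, 1.93 to 3.47, and Laptm5, 1.76 to 3.94. These intervals cover counting error only. The genes were picked by their place in these same data, so the separation is a description and not a test. P2ry12 stood at 28.9% of CD, below all CD mice, after 29.3% at day 10 and 7.60% in DEP14. Other surface genes at a low level were Siglech, a sialic acid-binding lectin (1, 0, 0 and 4 counts and then 5, 4, 0 and 1, at 29.4% of CD), and Gpr34, a lysophospholipid receptor (2, 2, 1 and 7 and then 5, 3, 2 and 4, at 45.8% of CD). P2ry13, a second ADP receptor, had 0, 0, 1 and 2 counts and then 3, 5, 3 and 0.

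Transcription factors showed no call. None of 11 genes tested had an unadjusted p under 0.05, none was without overlap, and the median log2 fold change was 0.04, or 0.37 without REPOP10 mice 2 and 3. Irf8, an interferon regulatory factor of the myeloid lineage, had 2, 11, 13 and 15 counts at day 10 and 10, 8, 12 and 10 at day 14, a log2 fold change of -0.04 ± 0.36, and stood at 62.3% and 60.3% of CD. Spi1, which encodes PU.1, was at most at 3 counts in any of the 8 mice, so a difference was not detectable at this depth.

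The microglial genes that were tested were split by whether depletion lowered them, using the levels of CD and DEP14. Of the 62 such genes with a CD mean of at least 1 CPM, 19 were below 50% of CD in DEP14 and 43 were not. Whether other retinal cells express the 43 genes was not tested. In the 19 genes the median log2 fold change was 1.37, 17 were higher and 2 lower at day 14, 12 were higher at an unadjusted p under 0.05 (all genes: 1.92%) and 9 did not overlap (all genes: 0.621%). Without REPOP10 mice 2 and 3 the median was 0.88, and 8 were higher at that p (all genes: 293 of 25713). Their summed level was 10.9, 9.11, 11.6 and 22.5 CPM in REPOP10 mice 1 to 4 and 39.2, 30.5, 31.0 and 36.8 CPM in REPOP14 mice 1 to 4. The CD mice ranged from 43.0 to 57.0 CPM and the DEP14 mice from 5.58 to 6.99 CPM. The summed level lay between depletion and CD at both days, without overlap among the 4 groups. The gap between CD and DEP14 follows from how the genes were chosen. That choice also favours a place between them for the REPOP mice, so this position is a description. The median gene of the 19 stood at 27.9% of CD at day 10 and 64.8% at day 14. In the 43 other genes the median log2 fold change was 0.02, with 24 higher and 19 lower.

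**Figure D2:**
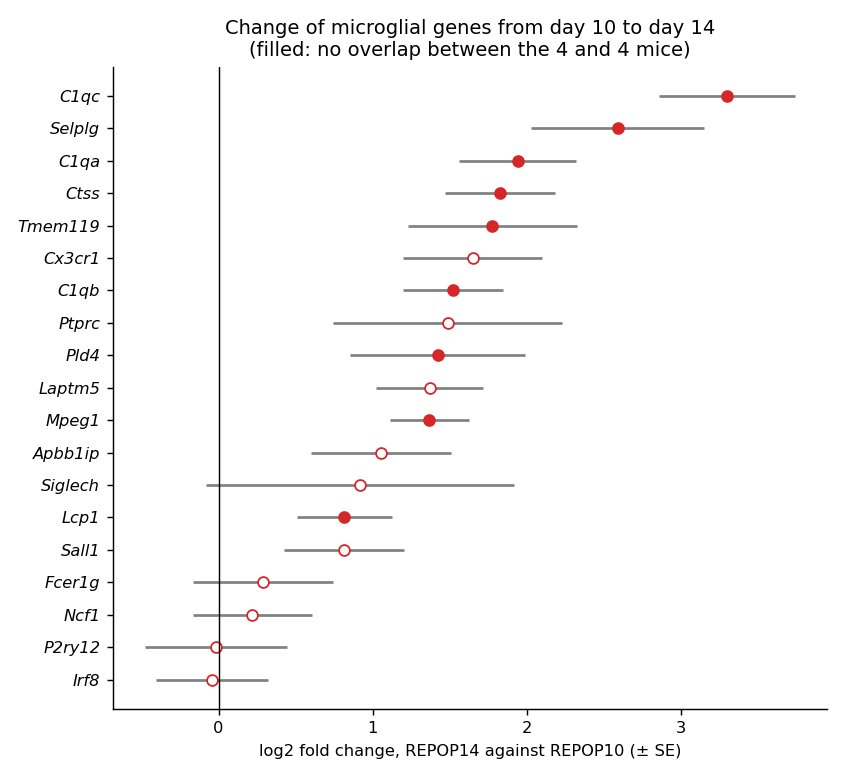
Log2 fold change of REPOP14 against REPOP10 (± SE) for the 19 microglial genes with a CD mean of at least 1 CPM that were below 50% of CD in DEP14, in order of size. Filled points mark genes whose 4 and 4 mice do not overlap. C1qc leads at 3.30, and P2ry12 and Irf8 lie at -0.02 and -0.04.

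The order of the 19 genes was led by C1qc, Selplg, C1qa, Ctss and Tmem119 with log2 fold changes from 3.30 to 1.78. It ended with Fcer1g, a signalling chain of Fc receptors (0.29 ± 0.45), Ncf1, a subunit of the phagocyte oxidase (0.22 ± 0.39), P2ry12 and Irf8. No neighbours in this order differed by more than the combined standard error of the pair. The level reached relative to CD gave another order: Mpeg1, Lcp1 and C1qc had means of 129%, 106% and 103% of CD, while P2ry12, Siglech, Tmem119, Cx3cr1, Selplg and Ptprc had means between 28.9% and 45.2%. These percentages move with the title suffix, since CD holds 3 RE and 2 re mice. Among RE mice alone Mpeg1 stood at 132%, Apbb1ip at 117%, Lcp1 at 95.8%, C1qc at 74.2%, P2ry12 at 22.0% and Siglech at 17.5% of CD. Selplg had the second largest log2 fold change and stayed under CD, and Mpeg1 had a smaller one and passed the CD mean.

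**Figure D3:**
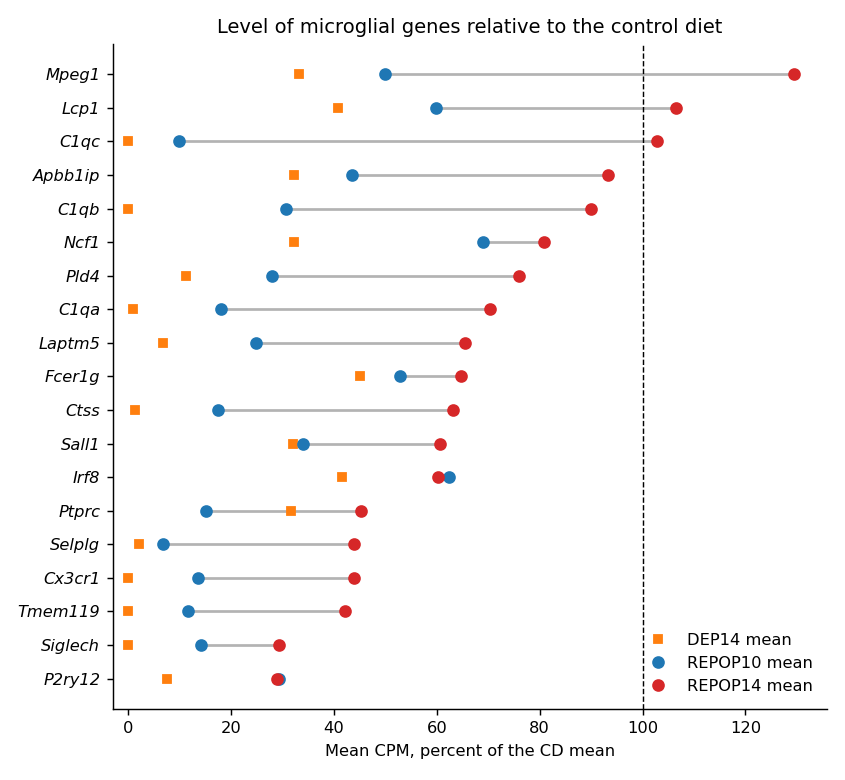
Mean CPM of the same 19 genes in DEP14, REPOP10 and REPOP14 as percent of the CD mean, which is the dashed line at 100. P2ry12 lies at 29.3% and 28.9% at the 2 repopulation days, whereas C1qc goes from 9.87% to 103%.

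Signalling genes downstream of Fc and ITAM receptors were divided. Of 39 tested, 10 were higher at an unadjusted p under 0.05 (all genes: 1.92%), 4 did not overlap (all genes: 0.621%) and the median log2 fold change was 0.44. Without REPOP10 mice 2 and 3, 4 were higher at that p (all genes: 293 of 25713). Lcp1, the actin bundler L-plastin, had 6, 6, 9 and 8 counts and then 14, 13, 12 and 13, and Tyrobp, the adaptor DAP12, had 0, 1, 1 and 7 and then 7, 6, 5 and 7. Outside the lists, Myo1f, a myosin of haematopoietic-lineage cells, had 1, 1, 0 and 1 counts and then 4, 5, 7 and 10. Plcg2, a phospholipase of this pathway, and Cyba, an oxidase subunit, were among the 5 lowest microglial genes with at least 40 counts, with log2 fold changes of -0.39 ± 0.30 and -0.30 ± 0.34 and overlapping groups. These were -0.05 and 0.26 without REPOP10 mice 2 and 3.

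Genes of activation and lipid handling had a median log2 fold change of 0.07 over 21 tested, with 12 higher and 9 lower at day 14. At an unadjusted p under 0.05, 1 was higher (all genes: 1.92%) and 1, Gpnmb, was lower (all genes: 1.74%). The groups did not overlap in 1 gene, which was higher. Without REPOP10 mice 2 and 3, 16 were higher and 5 lower. Gpnmb, a glycoprotein of phagocytes and of pigment cells, had 45, 56, 163 and 27 counts at day 10 and 43, 30, 36 and 29 at day 14, a log2 fold change of -1.08 ± 0.42 (adjusted p = 0.952). Without REPOP10 mice 2 and 3 its log2 fold change was 0.09. Lgals3, a galectin of activated phagocytes, and Tspo, a mitochondrial protein, had log2 fold changes of -0.26 ± 0.40 and -0.23 ± 0.39, and Apoe, the apolipoprotein that glia also make, of -0.17 ± 0.11. Tspo was at 0.24 and Apoe at 0.04 without REPOP10 mice 2 and 3. Itgax, an integrin chain of activated microglia, was at 0 or 1 count in each of the 8 mice.

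Dividing cells were looked for with 40 cell cycle genes, whose median log2 fold change was 0.03. Mki67, the proliferation marker, had 1, 1, 0 and 3 counts at day 10 and 7, 6, 4 and 5 at day 14, against 0, 0, 0, 1 and 1 in CD. The groups did not overlap and the log2 fold change was 2.02 ± 0.63 (adjusted p = 0.952), or 1.43 without REPOP10 mice 2 and 3. All REPOP14 mice lay above all CD mice in this gene. Top2a, a topoisomerase of dividing cells, had 1, 3, 2 and 2 counts and then 0, 3, 4 and 3, and Cdk1, the mitotic kinase, was at 0 to 2 counts in all 8 mice. Bub1b, a spindle checkpoint kinase, had 235, 381, 256 and 290 counts at day 10 and 190, 226, 202 and 228 at day 14 (log2 fold change -0.47 ± 0.13, adjusted p = 0.952). The groups did not overlap, with the later one lower.

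Other immune cells were checked with 3 lists. Of 13 perivascular macrophage and monocyte genes tested, 1 was higher at an unadjusted p under 0.05 (all genes: 1.92%). This was S100a9, a calgranulin of neutrophils and monocytes, with 0, 0, 1 and 0 counts at day 10 and 0, 10, 1 and 14 at day 14, so 2 of the 4 REPOP14 mice had over 3 counts. In CD its counts were 0, 3, 26, 5 and 0. Mrc1 and Cd163, markers of perivascular macrophages, were at 0 to 2 counts in each of the 8 mice. Class II antigen presentation genes and lymphocyte genes had no member at an unadjusted p under 0.05. Their genes of smallest p were H2-DMb1, a class II chaperone (0, 3, 4 and 1 counts and then 0, 2, 1 and 1), and Cd4, a T cell coreceptor (3, 0, 1 and 3 and then 4, 4, 2 and 3). Of the 7 class II genes tested, 6 were higher at day 14 and 1, H2-DMb1, was lower (median log2 fold change 0.36). Of the 5 lymphocyte genes tested, 2 were higher and 3 lower (median -0.02). In the perivascular macrophage and monocyte list 10 genes were higher and 3 lower (median 0.45). Without REPOP10 mice 2 and 3 these 3 medians were 0.20, -0.26 and 0.28. The summed level of the perivascular and monocyte list ranged from 23.1 to 27.0 CPM at day 10 and from 22.3 to 31.1 CPM at day 14. Its part in the microglial values was not tested.

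Of 28 interferon-stimulated genes, 3 were higher at an unadjusted p under 0.05 (all genes: 1.92%), 2 did not overlap (all genes: 0.621%), and the median log2 fold change was 0.08. Zbp1, a sensor of left-handed nucleic acids, had 1, 1, 0 and 2 counts and then 2, 4, 5 and 5 (groups overlapped by count and not by CPM, log2 fold change 1.86 ± 0.65, adjusted p = 0.952, or 1.10 without REPOP10 mice 2 and 3). Isg15 and Bst2 had log2 fold changes of 0.96 ± 0.43 and 0.74 ± 0.34.

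**Figure D4:**
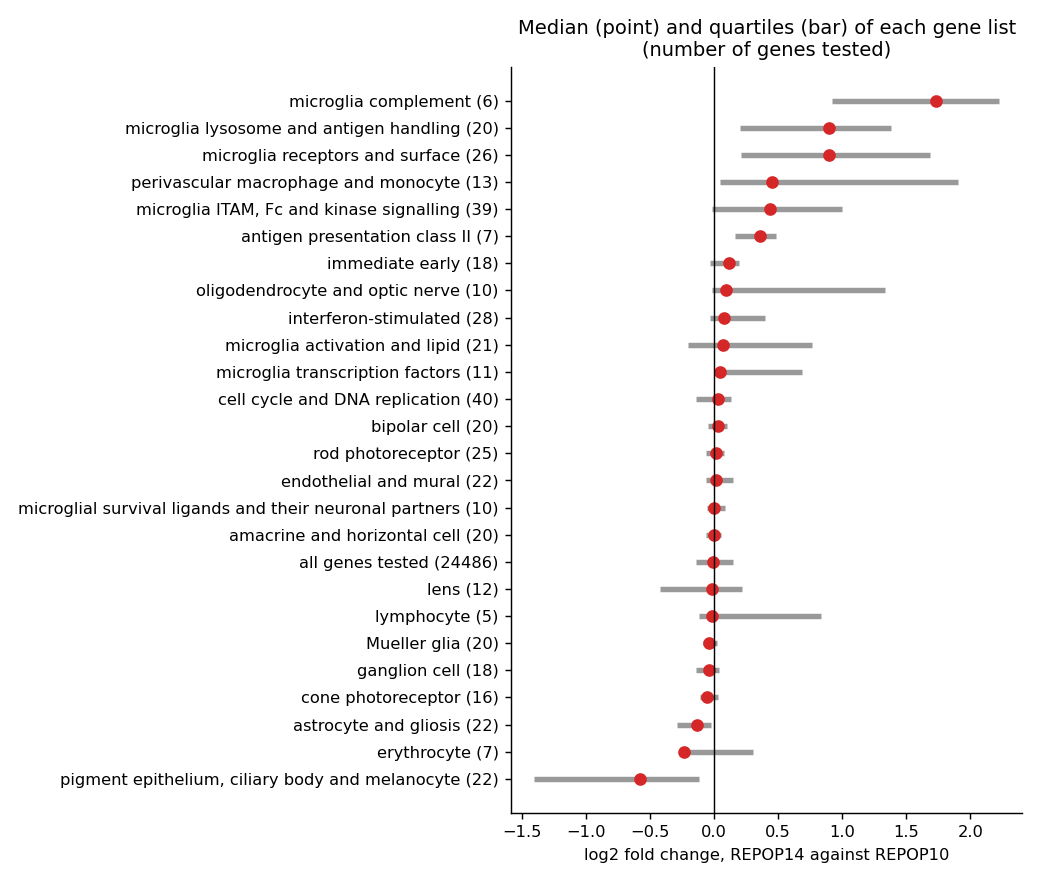
Median log2 fold change (points) and quartiles (bars) of each gene list, REPOP14 against REPOP10, with the number of genes tested. Complement, lysosomal and surface genes of microglia lie at 1.73, 0.90 and 0.90, the lists of retinal neurons and Mueller glia lie within 0.06 of 0, and the list of pigment epithelium, ciliary body and melanocytes lies at -0.58.

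Lists of neurons, Mueller glia and vessels had medians near that of all genes. The median log2 fold changes were 0.02 for rods (25 genes), -0.06 for cones (16), 0.03 for bipolar cells (20), 0.00 for amacrine and horizontal cells (20), -0.04 for ganglion cells (18), -0.04 for Mueller glia (20) and 0.02 for endothelial and mural cells (22). None of these genes passed an FDR of 0.05, and the genes of smallest p had log2 fold changes within 0.37 of 0. Pde6a, a rod phosphodiesterase subunit, had a mean of 2828 ± 78.7 CPM at day 10 and 3095 ± 85.5 CPM at day 14, with no overlap and a log2 fold change of 0.13 ± 0.06 (adjusted p = 0.952). Pde6h, a cone phosphodiesterase subunit, had -0.19 ± 0.08, Grm6, the glutamate receptor of ON bipolar cells, 0.24 ± 0.09, and Tpbgl, of the amacrine and horizontal list, 0.36 ± 0.14. Opn4, the photopigment melanopsin, had 0.37 ± 0.20, Timp3, a metalloproteinase inhibitor, -0.27 ± 0.10, and Esam, an endothelial adhesion molecule, 0.26 ± 0.13 on the same log2 scale. Timp3 was at -0.07 without REPOP10 mice 2 and 3. For Pde6h, Grm6, Tpbgl, Opn4, Timp3 and Esam the groups overlapped.

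Ligands that microglia read from other cells did not pass the test either. Of 10 such genes the median log2 fold change was 0.00, and none had an unadjusted p under 0.05. Csf1 and Il34, the ligands of CSF1R, had log2 fold changes of -0.01 ± 0.16 and 0.30 ± 0.18, and Cx3cl1, the ligand of Cx3cr1, of 0.10 ± 0.10. Tgfb1, a growth factor of microglial identity, had the smallest p of the list and a log2 fold change of 0.64 ± 0.35.

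Of 22 astrocyte and gliosis genes, 17 were lower at day 14 and the median was -0.13, but without REPOP10 mice 2 and 3 the direction turned, with 7 lower and a median of 0.10. Nes, the filament protein nestin, had 40, 104, 90 and 76 counts and then 48, 57, 59 and 46 (log2 fold change -0.56 ± 0.19, adjusted p = 0.952), and without REPOP10 mice 2 and 3 the log2 fold change was -0.24 ± 0.22. Gfap, the filament of reactive glia, had 99, 215, 252 and 151 counts and then 149, 133, 154 and 146, at 200% and 160% of CD, and all REPOP14 mice lay above all CD mice. Its highest counts were those of REPOP10 mice 2 and 3, and its log2 fold change was -0.29 ± 0.18 with them and 0.18 ± 0.17 without them. Egr1, an immediate early gene, had 500, 329, 313 and 299 counts and then 867, 320, 517 and 452. Its log2 fold change was 0.53 ± 0.12 (adjusted p = 0.815), with mouse 1, the one whose title ends in re, the highest of both groups.

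Of the 10 lower genes of smallest p, 9 were high in the same 2 REPOP10 mice. Dct, an enzyme of melanin synthesis, had 6, 87, 203 and 18 counts at day 10 and 6, 14, 11 and 17 at day 14, a log2 fold change of -2.69 ± 0.61 (adjusted p = 0.815). Fbln1, an extracellular matrix protein, had 12, 178, 288 and 17 counts and then 12, 5, 14 and 19. Optc, a proteoglycan of the vitreous, had 9, 105, 149 and 8 counts and then 8, 5, 10 and 10. Gpx3, a secreted glutathione peroxidase, had 35, 381, 722 and 30 counts and then 31, 31, 44 and 49. In each of these 4 genes REPOP10 mice 2 and 3 were high, and REPOP10 mice 1 and 4 lay in or next to the range of the REPOP14 mice. Without mice 2 and 3 the log2 fold changes were -0.28 for Dct and Fbln1, -0.03 for Optc and 0.21 for Gpx3. Of 22 genes of the pigment epithelium, ciliary body and melanocyte list, 20 were lower at day 14 and 5 had an unadjusted p under 0.05 (all genes: 1.74%), which were Dct, Tyrp1, Otx1, Rgr and Tyr. Without the 2 mice, 13 of 21 were lower, none had such a p in either direction by edgeR's quasi-likelihood test, and the median went from -0.58 to -0.04. In the same 2 mice the summed level of the 19 microglial genes was 9.11 and 11.6 CPM, beside 10.9 CPM in REPOP10 mouse 1. Slc16a12, a creatine transporter, was the remaining one, with 5, 14, 10 and 11 counts at day 10 and 2, 2, 3 and 5 at day 14 and a log2 fold change of -1.71 that was -1.59 without mice 2 and 3 (adjusted p = 0.952 and 0.971).

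**Figure D5:**
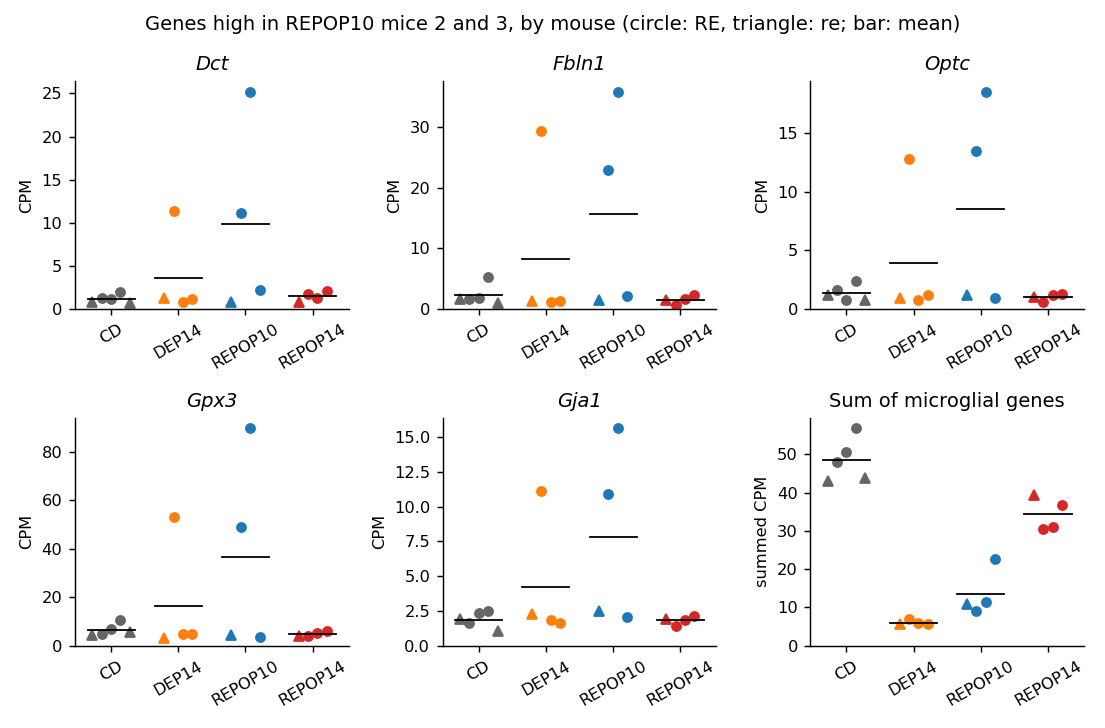
Level in CPM, by mouse, of Dct, Fbln1, Optc, Gpx3 and Gja1, and the summed level of the 19 microglial genes, for CD, DEP14, REPOP10 and REPOP14. Points are mice and bars are group means. REPOP10 mice 2 and 3 are high in the 5 genes, as is 1 DEP14 mouse, while in the summed microglial level they lie at 9.11 and 11.6 CPM, near REPOP10 mouse 1 at 10.9 CPM.

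The lens, oligodendrocyte and red blood cell lists had no gene at an unadjusted p under 0.05. Their genes of smallest p were Cryba2, a lens crystallin (1, 0, 2 and 0 counts and then 0 in each mouse), Mobp, a myelin protein (0 in each mouse and then 1, 0, 3 and 0), and Hba-a2, an alpha globin (5, 0, 3 and 0 and then 1, 0, 1 and 0).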

How the data were processed

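Total RNA of retina was sequenced as single-end 50 bp reads on a BGISEQ-500. The authors aligned reads to mm10 with HISAT2 and deposited raw HTSeq counts per gene, with no normalization, and FPKM values from StringTie. Tool versions, the annotation and the strand setting were not given in the sources used here. Libraries of the same group differed from each other beyond sampling noise.

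The model for the 8 mice used edgeR 4.0.16 (R 4.3.3, TMM, quasi-likelihood F test, title suffix and group as terms). A gene was tested if at least 0.5 of either group's mice had 1 count or more, and p-values were adjusted by Benjamini-Hochberg over all of them. An SE is the absolute log2 fold change over the square root of F. The fit was tested on simulated data. CPM used TMM factors over all 65 mice. Genes were placed with GENCODE M21.

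Members and lists were chosen with earlier results of these data known, and the split of microglial genes by CD and DEP14 after the values were seen. Named by rule were genes passing an FDR of 0.05, the 5 highest and 5 lowest microglial log2 fold changes among genes with at least 40 counts over the 8 mice, Cx3cr1, Itgam, Trem2, Sall1 and Tmem119, and the gene of smallest p in each other list. Alternatives were DESeq2 1.42.0, the likelihood ratio test, the older quasi-likelihood method, RLE, filterByExpr, no filter, no suffix, the RE mice alone, a replicate block, all 16 groups, no fold threshold and leaving out mice.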

Additional observations from a re-analysis of the deposited data

Results flagged for a closer look

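In 4 of 128 sets of 4 mice examined, the highest mouse stood far from the other 3 by Dixon's test, and chance alone marks about 1 in 20. C1qa was at 1.23 CPM in REPOP10 mouse 4 and at 0.389 to 0.513 CPM in the other REPOP10 mice. Trem2 was at 0.123 CPM in REPOP10 mouse 4, which is 1 count, and at 0 in the others. S100a9 was at 0.124 CPM in REPOP10 mouse 3, again 1 count, and at 0 in the others. The summed level of the bipolar cell list was 3422 CPM in REPOP14 mouse 2 and 3126 to 3160 CPM in the other REPOP14 mice.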

How the results depend on the processing

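The main counts were 0 DEGs in each direction, 1 gene higher and 0 lower at an FDR under 0.05, and 29 microglial genes higher and 1 lower at an unadjusted p under 0.05. Over all genes 896 had an unadjusted p under 0.05. DEGs higher numbered 1 with DESeq2, with the older quasi-likelihood method, with no gene filter and with an FDR under 0.05 and no fold threshold, 2 with all 16 groups in one fit, and 5 with the likelihood ratio test, which also gave 2 lower. At an FDR under 0.05 there were 4 higher with all 16 groups, 11 higher and 7 lower with the likelihood ratio test, and 0 higher without the suffix, with the RE mice alone and without REPOP10 mice 2 and 3. Microglial genes higher at an unadjusted p under 0.05 numbered 16 with DESeq2 and 13 with filterByExpr, which tests fewer genes. Over all genes 164 of 24486 were higher at that p with DESeq2 and 235 of 15333 with filterByExpr, against 469 of 24486 in the main fit. Microglial genes lower at that p numbered 2 without the suffix (all genes: 282 of 24486), with the RE mice alone (462 of 23224) and with the likelihood ratio test (592 of 24486). They numbered 0 with DESeq2 (134 of 24486) and without REPOP10 mice 2 and 3 (257 of 25713). Leaving out 1 mouse gave 0 DEGs in each direction, and 0 to 1 gene higher and 0 lower at an FDR under 0.05. It gave 22 to 31 microglial genes higher and 0 to 2 lower at an unadjusted p under 0.05. Over all genes these fits gave 324 to 552 higher and 364 to 521 lower at that p. The adjusted p of C1qc was 0.998 without the suffix and 0.805 with the RE mice alone, and with all 16 groups that of Ctss was 0.000285.

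Replicate numbers were not shown to pair mice: over 12316 genes the correlations of same-numbered mice were 0.849, 0.642, -0.168 and 0.334. The value of 0.849 was that of the mice whose titles end in re. Mice of different numbers reached 0.679 (REPOP10 mouse 4 with REPOP14 mouse 2). Among the RE mice alone, same-numbered mice had 0.175, 0.169 and -0.205. With the replicate block 0 genes were higher at an FDR under 0.05, and C1qc had a log2 fold change of 3.31 and an adjusted p of 0.112.

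Directions changed in few named genes, none of them called. The log2 fold change of Itgam was -0.016 with the RE mice alone. Over the fits that left out 1 mouse it ranged from -0.016 (without mouse 1 of either group) to 2.08 for Itgam and from -0.48 to 0.16 (without REPOP10 mouse 3) for Tspo. Without REPOP10 mice 2 and 3, an alternative chosen after the data were seen, Gpnmb was at 0.085, Cyba at 0.26, Tspo at 0.24 and H2-DMb1 at 0.35. The cause was not tested. Of the other values of named genes, 594 kept direction and side of the threshold, 8 passed it newly and 11 lost it. All 11 that lost it were values of C1qc, the only gene called in the main fit. No other named gene had a call to lose, so the 594 do not show that the call of C1qc is stable. Choosing the microglial genes by at least 40 counts over the 8 mice, the split used first, left 18 genes below 50% of CD in DEP14 with a median log2 fold change of 1.24, and 47 others with 0.02.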
